A study of Homo sapiens with 6 samples.

Results

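The genes described here encode the machinery of DNA replication and its S-phase control, 45 in all, named by their known roles, with earlier results of these data known. Of these, 43 had a value among the 22465 genes with a symbol of their own on the array, taken from the brightest transcript cluster (the set of probes that reports a gene). The clusters of RRM1 and PRIM2 carry several symbols, so both genes were not analysed here. RNA came from MDA-MB-231, an established line of triple-negative breast cancer cells of human origin, after lentiviral delivery of a hairpin against the DAXX coding sequence (shDAXX) or a scrambled hairpin (shControl), with puromycin selection at 2 µg/ml in both groups. The DAXX hairpin was driven by the H1 promoter, and no source used here says whether the stable cells were a pool or 1 clone. With 1 hairpin per group, an effect of the hairpin or of the line made with it cannot be told apart from loss of DAXX. Cells grew for 24 hours, and each group had 3 biological replicates on 1 array each. The labels name complete medium for these cultures.

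Before a cell enters S phase, the origin recognition complex (ORC) with CDC6 and CDT1 loads the ring-shaped MCM2-7 helicase onto DNA, and CDC45 and the GINS complex then turn it into the active helicase. Polymerase alpha with primase starts each new strand, the RFC complex loads the PCNA clamp that holds polymerases delta and epsilon, and FEN1 and LIG1 finish the lagging strand. Most of these genes are switched on by E2F factors in late G1 and are a common readout of proliferation in tumour cells.

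The arrays were alike in level, with medians from 5.71 to 5.77 on the log2 scale, and correlated at 0.996 to 0.997 within groups and 0.991 to 0.992 between them. DAXX, the target, fell from 7.49, 7.48 and 7.43 to 6.69, 6.67 and 6.61 (log2 fold change -0.81, SE 0.060, limma adjusted p = 4.9e-04). The mesenchymal markers VIM (15.72 to 16.06) and CD44 (12.92 to 13.40) were bright, and the hormone receptor genes ESR1 and PGR lay between 3.93 and 4.62, below the median gene at 5.72. The epithelial marker EPCAM, listed beforehand as low in this line, lay between 7.90 and 8.15, above that median. Of 12 leukocyte, fibroblast and endothelial markers measured, 11 were below that median in both groups. The exception, CDH5, rose by 0.37 (adjusted p = 0.037), and PTPRC, which was dim, fell by 0.29 (adjusted p = 0.027). Of the mesenchymal markers, CD44 rose by 0.39 (adjusted p = 0.013), and VIM differed by -0.23 (adjusted p = 0.092).

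The replication genes as a whole had a median near 0, and 9 of them changed by about 1.3- to 1.5-fold. In shDAXX cells 8 rose (ORC1, MCM10, CCNE2, RFC3, FEN1, MCM4, RRM2 and CLSPN) and 1 fell (GINS4) at a limma adjusted p under 0.05. A call below always means this threshold, with p-values adjusted over all 22465 genes. Log2 fold changes are shDAXX minus shControl and ran from -0.58 to 0.56, with a median of 0.05 against 0.01 over all genes, and 67.4% of members lay above 0 against 51.2% of all genes. Since the RNA was bulk, a change in the share of cells in S phase cannot be told apart from a change in RNA per cell.

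These counts have to be read against how often any gene was called. The 9 called members are 20.9% of 43, where 9.90% of all genes tested were called. All 43 members were above the median signal in at least 1 group, and among the 11473 genes of which that was true 17.8% were called, which is close to the members' share. The direction was less even than in that background: 18.6% of members were called higher against 4.30% of all genes and 7.57% of the brighter ones, and 2.33% were called lower against 5.60% and 10.2%. All 3 shDAXX arrays lay above all 3 shControl arrays for 13 members, or 30.2% (14.0% of all genes), and below them for 4, or 9.3% (14.7% of all genes). These shares, the share above 0 and the counts by unadjusted p below were set against all genes only, not against the brighter ones.

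**Figure D1:**
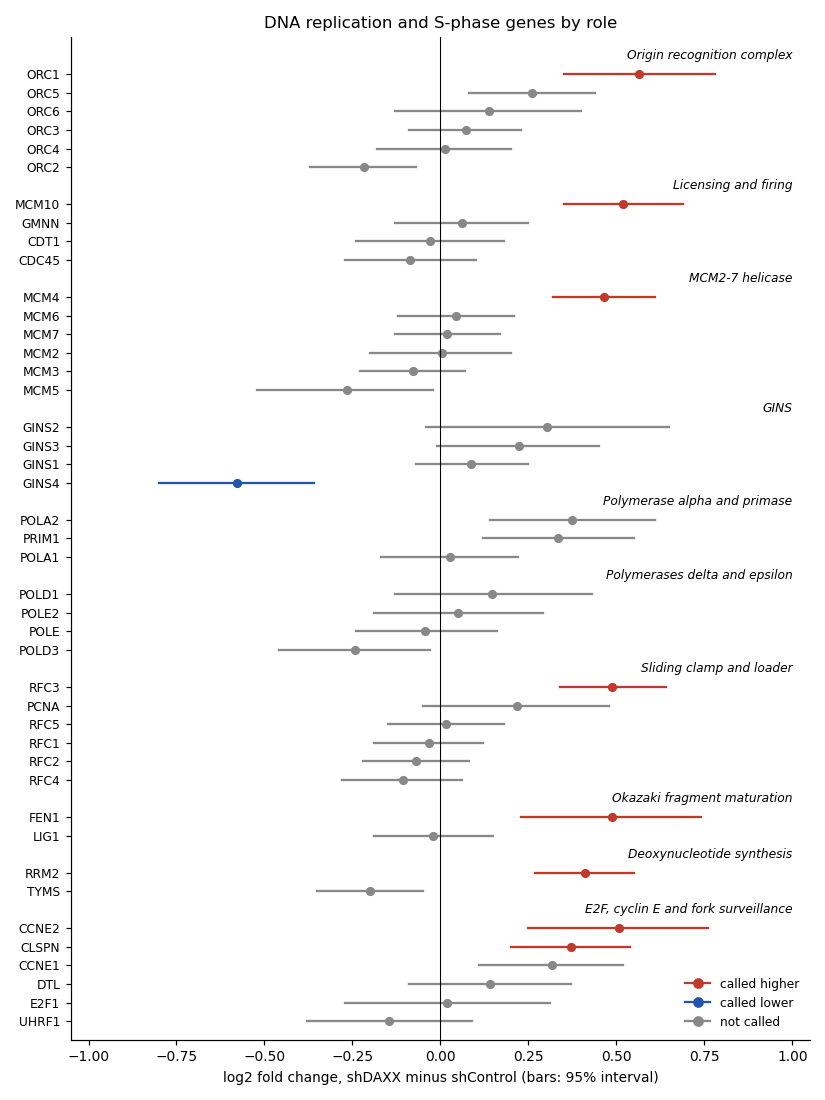
Log2 fold change (x axis, shDAXX minus shControl) of the 43 measured members, ordered by role, with 95% intervals from the limma fit as bars. Red marks the 8 members called higher, blue GINS4, the member called lower, and grey the 34 not called, whose fold changes ran from -0.27 to 0.37.

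Within the origin recognition complex, which marks the sites where replication can start, ORC1 rose and its partners did not pass the test. ORC1, the subunit whose level varies most over the cell cycle, had signals of 7.93, 8.12 and 7.83 in shControl and 8.48, 8.61 and 8.48 in shDAXX, so the groups did not overlap. The difference was 0.56 (SE 0.091, adjusted p = 0.011), or 1.48-fold. ORC5 was 8.75, 8.60 and 8.61 in shControl and 8.84, 8.91 and 8.99 in shDAXX (0.26, adjusted p = 0.079). ORC2 lay on the other side, at 9.20, 9.27 and 9.18 in shControl and 8.95, 8.99 and 9.06 in shDAXX (-0.22, adjusted p = 0.087). Neither was called, although the groups did not overlap for either gene. ORC3, ORC4 and ORC6 had differences of 0.07, 0.01 and 0.14. Measured within each array against the mean of ORC2 to ORC6, ORC1 was higher in shDAXX by 0.51 ± 0.075, while the shControl arrays varied with an SD of 0.11 (n = 3 each). Each gene set against its partners in this way, here and below, is the called one of its complex. These differences therefore restate the calls and are no separate test.

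Among the licensing and firing factors MCM10 rose. MCM10, which helps to activate the loaded helicase and brings in polymerase alpha, went from 11.58, 11.58 and 11.43 in shControl to 12.09, 12.07 and 11.99 in shDAXX. The lowest shDAXX array was thus well above the highest shControl array, a difference of 0.52 (SE 0.071, adjusted p = 0.006). CDT1, which loads the helicase, differed by -0.03, its inhibitor geminin (GMNN) by 0.06 and the helicase cofactor CDC45 by -0.09, and none of them passed.

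The 6 MCM2-7 subunits, which form 1 ring, did not move together. MCM4 was 10.10, 10.07 and 10.04 in shControl and 10.51, 10.59 and 10.50 in shDAXX, with little spread in either group (0.46, SE 0.061, adjusted p = 0.005). MCM5 leaned the other way without passing, from 10.46, 10.69 and 10.59 to 10.41, 10.41 and 10.12 (-0.27, adjusted p = 0.183). MCM2, MCM3, MCM6 and MCM7 lay between -0.08 and 0.04, and their 95% intervals stayed within -0.23 and 0.21. Within each array, MCM4, picked as the called subunit, was higher relative to the mean of the other 5 on the shDAXX arrays than in shControl. The differences were 0.47, 0.52 and 0.57 (SD 0.066 among shControl arrays).

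GINS, a complex of 4 subunits, also split. GINS4 was 9.10, 9.25 and 8.93 in shControl and 8.47, 8.58 and 8.50 in shDAXX, with every shDAXX array below every shControl array. It fell by 0.58 (SE 0.093, adjusted p = 0.011) and was the only member called lower. Its partners GINS1, GINS2 and GINS3 differed by 0.09, 0.30 and 0.22 and did not pass. Relative to their mean on the same array, GINS4 was 0.78 ± 0.10 lower in shDAXX, against an SD of 0.11 in shControl. The lowest such value on a shDAXX array was -0.88 and the highest -0.68.

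At the replication fork itself, RFC3 and FEN1 were the called genes. Polymerase alpha and primase, which lay down the RNA-DNA primer, had 0 calls among 3 measured subunits by limma and 0 by the methods' t-test with adjusted p. Before adjustment 2 of the 3 were under 0.05 in limma, as were 5310 of all 22465 genes. The accessory subunit POLA2 was 8.35, 8.32 and 8.25 in shControl and 8.58, 8.89 and 8.57 in shDAXX (0.37, adjusted p = 0.064), and the catalytic primase PRIM1 was 10.98, 10.98 and 10.80 against 11.11, 11.31 and 11.34 (0.33, adjusted p = 0.067). Their groups did not overlap. The catalytic subunit POLA1 differed by 0.03.

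Polymerases delta and epsilon, which copy the lagging and leading strands, also had 0 calls by either test, with 1 of 4 subunits at an unadjusted p under 0.05. That subunit, POLD3, was 10.42, 10.44 and 10.27 in shControl and 10.05, 10.29 and 10.06 in shDAXX (-0.24, adjusted p = 0.163), and 1 shDAXX array lay within the shControl range. POLD1, POLE and POLE2 lay between -0.04 and 0.15.

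The clamp loader gave another called member beside partners that were not called. RFC3, a small subunit of the RFC ring, was 10.00, 9.89 and 9.93 in shControl and 10.40, 10.41 and 10.47 in shDAXX (0.49, SE 0.063, adjusted p = 0.005). RFC1, RFC2, RFC4 and RFC5 lay between -0.11 and 0.02, and relative to their mean on the same array RFC3 was higher by 0.54 ± 0.038 in shDAXX (SD 0.065 in shControl). The clamp PCNA differed by 0.22 with overlapping groups (adjusted p = 0.304).

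FEN1, the nuclease that trims the flaps of Okazaki fragments, was 11.91, 11.52 and 11.58 in shControl and 12.19, 12.17 and 12.11 in shDAXX (0.49, SE 0.11, adjusted p = 0.036). Its shControl arrays were spread more widely than its shDAXX arrays. LIG1, the ligase that seals the nick, differed by -0.02.

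Of the 2 genes of deoxynucleotide synthesis measured, RRM2 rose. RRM2, the small subunit of ribonucleotide reductase that appears in S phase, was 10.51, 10.52 and 10.44 in shControl and 10.91, 10.90 and 10.89 in shDAXX (0.41, SE 0.059, adjusted p = 0.007). Thymidylate synthase (TYMS), which makes dTMP, was 13.40, 13.29 and 13.29 against 13.08, 13.13 and 13.17 (-0.20, adjusted p = 0.115) and was not called, although its groups did not overlap.

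Among the E2F, cyclin E and fork surveillance genes, cyclin E2 and claspin rose. CCNE2, which activates CDK2 at S-phase entry, was 9.13, 8.96 and 8.80 in shControl and 9.39, 9.62 and 9.40 in shDAXX (0.51, SE 0.11, adjusted p = 0.030). CLSPN, the mediator that passes the signal from ATR to CHEK1 at stalled forks, was 11.89, 11.71 and 11.80 against 12.19, 12.20 and 12.12 (0.37, SE 0.071, adjusted p = 0.020). In both genes every shDAXX array was above every shControl array. Cyclin E1 (CCNE1) was 8.04, 7.81 and 7.93 against 8.13, 8.31 and 8.29 (0.32, adjusted p = 0.069). E2F1 differed by 0.02, DTL, the ubiquitin ligase receptor that removes CDT1, by 0.14, and UHRF1, which recruits the maintenance methyltransferase to new DNA, by -0.15.

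**Figure D2:**
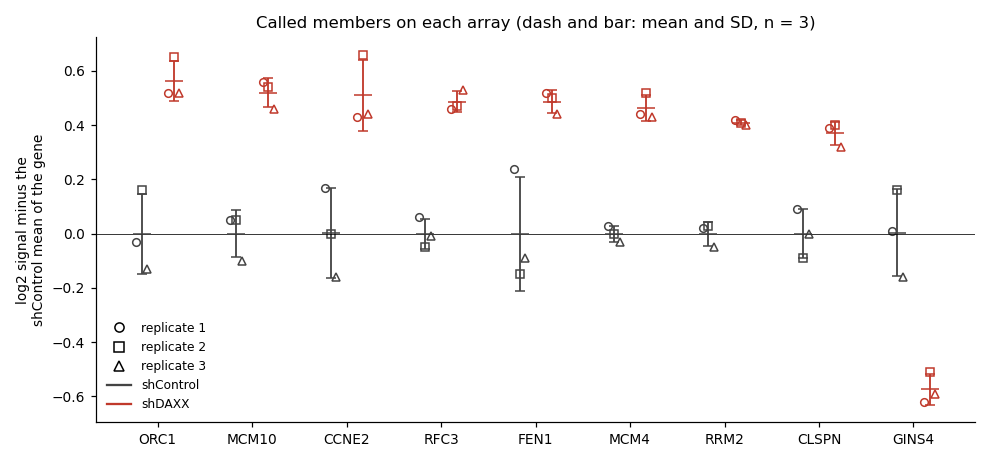
Log2 signal of the 9 called members on each array (y axis, minus the shControl mean of the gene). Points are arrays, with the replicate number as the symbol, and dashes with bars are the mean and SD (n = 3). The shDAXX arrays of the 8 members called higher lie between 0.32 and 0.66, and those of GINS4 between -0.62 and -0.51.

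The calls differed in how they held with fewer arrays. Leaving out each array in turn, MCM4, MCM10, RFC3, RRM2, ORC1 and GINS4 passed all 6 times, at adjusted p of at most 0.024, 0.027, 0.023, 0.031, 0.046 and 0.044. FEN1, CCNE2 and CLSPN passed only without shControl replicate 1 (0.010, 0.033 and 0.034) and missed without any other array, with adjusted p up to 0.109, 0.089 and 0.071. Their log2 fold changes stayed at 0.41 to 0.61, 0.42 to 0.59 and 0.32 to 0.41 over these fits. Adjusting over every transcript cluster on the array left MCM4, MCM10 and RFC3, while RRM2 (0.063), GINS4 (0.055), ORC1 (0.057), CCNE2 (0.110), CLSPN (0.113) and FEN1 (0.125) missed.

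For the 34 members that were not called, the data bound the change rather than show that there was none. Their 95% intervals reached from -0.52 at the lowest to 0.65 at the highest, so a 2-fold change lay outside every interval. For 18 of them the whole interval lay within 0.3 of 0 on the log2 scale. The intervals reached to either side of the estimate by 0.15 to 0.35. Of the 34, 8 had an unadjusted p under 0.05. Counting called genes too, 17 of the 43 members were under this limit, against 5310 of all 22465 genes.

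The members also varied together between replicates of the same group. On shControl replicate 3, only 5 of 43 members were above their group mean, and their mean deviation was -0.07. On shDAXX replicate 2, 33 were above it, with a mean deviation of 0.06. Over all genes the shares above the group mean were 44.0% and 49.7% on these arrays, against 11.6% and 76.7% of the members. Without shControl replicate 3 the members' median fold change was 0.00 in place of 0.05, and without shDAXX replicate 2 it was 0.05. Leaving out any array but shControl replicate 1 left 5 members called higher in place of 8.

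**Figure D3:**
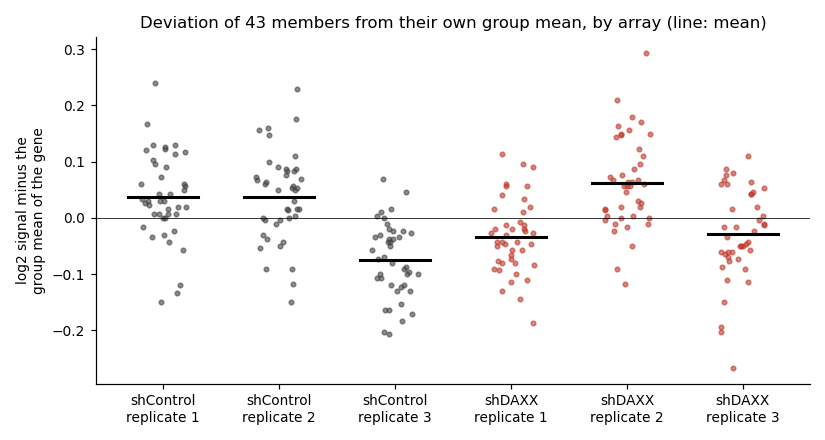
Log2 signal of the 43 members on each of the 6 arrays, minus the mean of the gene in the array's own group (y axis). Each point is a gene and each line the mean over genes, which is lowest on shControl replicate 3 (-0.07) and highest on shDAXX replicate 2 (0.06).

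Genes of mitosis, the later phase of the cycle, were also lowest on replicate 3 among the shControl arrays and highest on replicate 2 among the shDAXX arrays, but lay lower in shDAXX than in shControl. Of 19 mitosis genes measured, 0 rose and 2 fell by limma, the transcription factor FOXM1 (-0.87, adjusted p = 5.3e-04) and the topoisomerase TOP2A (-0.55, adjusted p = 0.004). The methods' t-test with adjusted p gave the same counts, and under an unadjusted limma p of 0.05 they were 0 and 6 (2477 and 2833 of all 22465 genes). Those called lower by limma were 10.5%, against 5.60% of all genes. All 19 were among the brighter genes, of which 10.2% were called lower, so the share of calls was near that background. In all, 17 of the 19 lay below 0, with a median of -0.16, against 10974 of 22465 and 0.01 over all genes. The mean of the replication genes was 0.07, 0.17 and 0.08 above shControl on the shDAXX arrays and that of the mitosis genes was -0.22, -0.10 and -0.23. Taken within each array, the difference between these means was 0.30, 0.27 and 0.31 above shControl, with an SD of 0.017 among shControl arrays, on which it was 0.00, -0.02 and 0.01. The neighbours of FOXM1 and TOP2A on their chromosomes had medians of -0.23 and -0.12, within the limit of 0.3 used here for shifted neighbours. Without these 2 called mitosis genes and without the 9 called members the difference was 0.16 ± 0.018, against an SD of 0.019 in shControl. The part of neighbouring genes in it was not tested. These means describe chosen lists and carry no test.

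Among 39 further fork and origin genes 3 rose and 2 fell, with a median of 0.09. Those called were 12.8%, against 9.90% of all genes. Of the 39, 37 were among the brighter genes, of which 17.8% were called. DSCC1, part of an alternative clamp loader, rose by 0.55, the single-strand binding subunit RPA2 by 0.52 and the MCM-binding protein gene MCMBP by 0.36 (adjusted p = 0.004, 0.009 and 0.012). TOP1, which relaxes DNA ahead of the fork, fell by 0.48 (adjusted p = 0.009), and the helicase loader CDC6 by 0.41 (adjusted p = 0.010). The 20 nearest genes tested had medians of -0.15 around TOP1 and -0.28 around CDC6. Both medians are within the limit of 0.3 for shifted neighbours, and the part of the neighbours in these falls was not tested.

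Among 32 genes of the G1 to S switch 4 rose and 3 fell, or 21.9% called, against 17.8% of the brighter genes. E2F5 rose by 0.57, E2F6, a repressor, by 0.43, and E2F8, an atypical repressor, by 0.40 (adjusted p = 0.008, 0.012 and 0.016), while the other atypical repressor, E2F7, fell by 0.51 (adjusted p = 0.006). Cyclin D2 (CCND2) fell by 1.04 (adjusted p = 2.0e-04) and the CDK inhibitor p27 (CDKN1B) by 0.64 (adjusted p = 0.012). Both lie on chromosome 12 among lowered neighbours, with medians of -0.30 and -0.55, and the part of this in their fall was not tested.

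In the nucleotide supply and checkpoint lists, 4.0% and 0% of genes were called, against 9.90% of all genes. All genes measured in both lists were among the brighter ones, of which 17.8% were called, and no difference from these shares was tested. Of 25 nucleotide supply genes 1 rose, the pyrimidine enzyme gene UMPS (0.25, adjusted p = 0.041), and 0 fell by limma or by the methods' t-test, with 3 lower at an unadjusted p under 0.05. Of 21 S-phase checkpoint genes limma called 0, the methods' t-test with adjusted p called 2 higher and 0 lower, and 10 had an unadjusted p under 0.05. Over all 22465 genes 5310 had an unadjusted p under 0.05, and 2833 of these were lower.

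**Figure D4:**
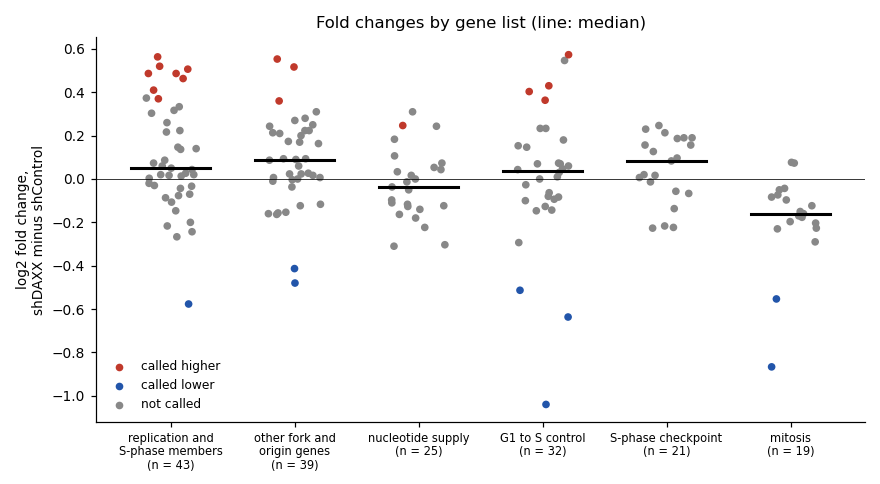
Log2 fold changes (y axis, shDAXX minus shControl) of the replication and S-phase members and of 5 further gene lists, with the number measured below each list and its median as a line. The medians run from 0.09 for the other fork and origin genes to -0.16 for the mitosis genes.

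On chromosome 8, singled out after the calls were seen, all 3 members were called (MCM4 and CCNE2 higher, GINS4 lower). Of the 40 members on other chromosomes 6 were called. With only 3 members on chromosome 8, no difference between these shares was tested. Of the 782 genes tested on chromosome 8, 11.6% were called higher and 2.69% lower, against 4.30% and 5.60% over all chromosomes, and their median was 0.07. The 20 nearest tested neighbours of MCM4, CCNE2 and GINS4 had medians of 0.13, 0.08 and 0.07, and 0 of the 20 neighbours of GINS4 were called lower. DSCC1 and E2F5 above are on chromosome 8 as well, with neighbour medians of 0.21 and 0.08. The neighbour medians of all 43 members lay between -0.16 and 0.13, and the part of the surroundings in the members' values was not tested.

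Many of the members carry an E2F site in their promoter, and as known S-phase genes they may have been chosen in part for their regulation by E2F. Promoters from RefSeq (GRCh38.p14, from 250 bases before to 50 after each start) were at hand for 38 of the 43. The E2F site, searched on both strands as TTTCCCGC, TTTCGCGC, TTTGCCGC or TTTGGCGC with overlapping matches counted, was in 22 of the 38 genes (57.9%), against 3.99% of 27305 genes with a promoter. The CCAAT box of the factor NF-Y (CCAAT, both strands) was in 60.5% against 39.7%, and the CHR element of mitotic promoters (TTTGAA, both strands) in 0 of the 38 against 18.2%. By call, the E2F site was in 2 of the 6 risen members with a promoter, CLSPN and RFC3, and in 20 of the 32 that were not called (62.5%). A match describes the letters only. A gene counted without the site may hold a close variant of it, which was not searched.

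Shown first are the stretches around this site in CLSPN and RFC3, which rose, followed by 5 members that were not called, so that the same letters can be compared across called and uncalled genes. They are given 5′ to 3′ on the strand of the gene, with the site in capitals.
CLSPN (risen, chr1:35769960-35769999, minus strand): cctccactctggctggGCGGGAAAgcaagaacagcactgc
RFC3 (risen, chr13:33818078-33818117, plus strand): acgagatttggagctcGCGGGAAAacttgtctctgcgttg
POLA2 (not called, chr11:65261893-65261932, plus strand): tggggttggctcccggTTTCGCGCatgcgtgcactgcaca
DTL (not called, chr1:212035724-212035763, plus strand): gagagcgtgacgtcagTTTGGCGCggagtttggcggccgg
MCM6 (not called, chr2:135876572-135876611, minus strand): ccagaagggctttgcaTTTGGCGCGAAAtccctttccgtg
MCM2 (not called, chr3:127598397-127598436, plus strand): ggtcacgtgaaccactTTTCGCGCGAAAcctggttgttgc
E2F1 (not called, chr20:33686395-33686434, minus strand): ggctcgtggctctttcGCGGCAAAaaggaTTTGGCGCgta

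The CLSPN and RFC3 stretches hold the same 8 letters, GCGGGAAA, which is TTTCCCGC on the other strand. Their first letters lie 5 and 55 bases before the start of the gene, so the CLSPN site runs across the start. In MCM6 and MCM2 sites on both strands overlap into a run of 12 letters, and E2F1 carries a pair of sites. The log2 fold changes of these genes were 0.04, 0.00 and 0.02. POLA2 and DTL differed by 0.37 and 0.14 without being called.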

How the data were processed

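Total RNA (200 ng a sample) was hybridised to 1-colour Affymetrix Human Transcriptome Array 2.0. The deposited values are log2 RMA signals, which the authors made by background correction, normalization between arrays and summary over probes. Affymetrix Expression Console is named in the submitters' notes on processing, without a version. The methods describe a batch correction of arrays run at different times, and no source used here says whether it touched these 6 arrays. Array signals flatten toward background, which makes changes of dim genes look smaller than they were, and signals of different clusters are not comparable in abundance.

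Of 70523 rows, 67528 were transcript clusters and 23781 had exactly 1 symbol. The brightest cluster was kept per gene (22465 genes), and no member had more than 1. The groups were fitted in limma 3.58.1 under R 4.3.3 (lmFit, then eBayes, two-sided, without covariates), with Benjamini-Hochberg adjustment over all genes. The fit was tested on simulated data. No genome build for the array is named in the sources used. Gene order came from the RefSeq table of GRCh38.p14, with 10 neighbours on each side.

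The members and lists were chosen with earlier results of these data known. Values per array are given for called members, the 5 uncalled with the smallest p and 1 of each role with no call. Up to 3 called genes a direction were named from other lists. MCM5 and TYMS were added after their values were seen. Precision is limited by the 3 arrays a group. Alternatives were a filter on dim genes, every cluster, the mean of clusters, quantile normalization, equal medians, a replicate block, trend and robust eBayes, the methods' t-test, and leaving out each array.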

Additional observations from a re-analysis of the deposited data

How the results depend on the processing

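The 8 higher and 1 lower members became 12 and 3 with the filter on dim genes or with trend and robust eBayes, 10 and 1 after quantile normalization or with equal array medians, 5 and 1 with the replicate block, 5 and 0 by the methods' t-test with adjusted p, 7 and 1 at its unadjusted threshold of 0.05 with a 1.3-fold limit, and 3 and 0 over every transcript cluster. Leaving out each array gave 5 to 8 higher and 1 lower, and a member median of 0.00 to 0.08. Leaving out the 100 genes with shifted neighbours, chosen after seeing the data, gave 8 and 1. Over all genes, 967 were higher and 1257 lower. Counts were 537 higher over every cluster (903 lower), 606 higher with the block, 811 lower (707 higher) by the methods' t-test with adjusted p, and 515 to 609 higher and 722 to 857 lower without each array. Among called genes 56.5% were lower, against 48.9% after quantile normalization and 45.6% with equal medians. The fits without 1 array had fewer arrays, and the fit over every cluster tested more features. What moved these counts was not tested. MCM4, MCM10 and RFC3 kept their call in all 15 alternatives. Same-numbered arrays of the 2 groups had correlations of deviations of -0.09, 0.22 and 0.08 over all genes, and -0.05, 0.32 and 0.23 over the members. Over all genes 2 of 6 arrays correlated best with their own number, so the numbers were not taken as pairs. The replicate block ended the calls of FEN1 (0.056), CLSPN (0.057) and CCNE2 (0.062). ORC1 and GINS4 missed by the methods' t-test with adjusted p (0.056 each), as did FEN1 (0.124) and CCNE2 (0.111). Uncalled members that gained a call in at least 1 alternative were POLA2, PRIM1, CCNE1, ORC5, ORC2 and TYMS.

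In 13 uncalled members near 0 the sign turned. With equal medians CDT1 was 0.01, RFC1 0.00 and LIG1 0.02, and after quantile normalization CDT1 was 0.00 and LIG1 0.02. Leaving out each array in turn gave -0.06 to 0.06 for MCM2, -0.01 to 0.09 for MCM6, -0.00 to 0.05 for MCM7, -0.12 to 0.02 for CDT1, -0.00 to 0.13 for GMNN, -0.04 to 0.08 for ORC4, -0.03 to 0.08 for POLA1, -0.09 to 0.03 for POLE, -0.01 to 0.14 for POLE2, -0.02 to 0.05 for RFC5, -0.06 to 0.03 for LIG1 and -0.08 to 0.12 for E2F1.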
